A study of Mus musculus with 6 samples.

Results

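The enzymes that write, copy and remove DNA methylation were followed at the RNA level in germinal centre B cells with and without a conditional deletion of Lsd1. The set was chosen by name as 9 genes of DNA methylation and demethylation: Dnmt1, Dnmt3a, Dnmt3b, Tet1, Tet2, Tet3, Uhrf1, Tdg and Mbd4. Of these 9, 8 had a row among the 15861 genes of the count table, and Tdg was not analysed here. Polyadenylated RNA had been sequenced from B cells sorted as B220+ GL7+ FAS+, 1 library for each of 6 C57BL/6 littermates. The KO group held 3 mice with the genotype Cgamma-cre+/-; Lsd1 f/f, and the WT group held 3 mice with the genotype Lsd1 f/f, so both groups carried floxed Lsd1 alleles and the KO group alone carried Cre. Lsd1 is the older name of Kdm1a, a demethylase of histone H3. No mouse with Cre and unfloxed Lsd1 was analysed here, so the deletion and Cre itself cannot be told apart. The labels state neither the age of the mice nor an immunisation.

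In mammals DNA is methylated mainly at cytosines of CG pairs. DNMT3A and DNMT3B place new methyl groups, DNMT1 copies them onto the daughter strand behind the replication fork, and UHRF1 brings DNMT1 to half-methylated sites. TET1, TET2 and TET3 oxidise methylcytosine, and the glycosylases TDG and MBD4 cut out altered or mismatched bases so that base excision repair can restore cytosine. Germinal centre B cells divide fast, mutate their antibody genes, and are known to lose methylation at many sites while they do so. LSD1 is linked to this system in mouse embryonic stem cells, where it removes methyl groups from the DNMT1 protein, a step that RNA counts do not show.

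Depth was 12.3, 14.3 and 13.1 M counts in KO and 3.79, 5.52 and 3.39 M counts in WT. The KO libraries were all deeper than the WT libraries, so depth and genotype cannot be told apart. Kdm1a, the targeted gene, was measured at 81.9, 33 and 21.8 CPM (counts set relative to library size, with TMM scaling) in KO and at 134, 85.2 and 92.6 CPM in WT. Its log2 fold change of KO over WT was -1.19 (SE 0.50), which did not pass over all genes (edgeR adjusted p = 0.393), but did without KO 1 (-1.93, edgeR adjusted p = 0.0169). The library labelled KO 1 therefore lay close to the lowest WT library for the target gene, and on library totals, at 87.5 CPM, it lay within the WT range of 78.9 to 135 CPM. Results that rest on the library labelled KO 1 are given with and without it. The 13 germinal centre markers together made up 6950 to 7190 CPM of library totals in KO and 5780 to 9510 CPM in WT, and of these 13 only Mef2b lacked a count in some library. In bulk RNA, a lower level per cell and fewer cells that express a gene cannot be told apart.

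None of the tested genes of the set passed the test between KO and WT. Of the 8 genes, 7 passed the filter on low counts and entered edgeR's quasi-likelihood test, and 0 of the 7 had a Benjamini-Hochberg adjusted p under 0.05, against 0.0824% of all 10926 genes tested. By direction, 0 of 7 were called higher in KO, against 0.0732% of all genes, and 0 of 7 lower, against 0.00915%. At an unadjusted p under 0.05 the count was also 0 of 7, against 12.6% of all genes. The fold changes were above 0 for 4 of the 7 and below 0 for 3, with a median log2 value of 0.2, against a median of 0.01 over all genes and 51.3% of them above 0. DESeq2, limma-voom and the other alternatives, 18 in all, likewise called 0 members in either direction. The intervals leave room for differences of some size, from 0.681-fold to 1.31-fold for Dnmt1 up to 0.964-fold to 4.79-fold for Tet2.

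**Figure D1:**
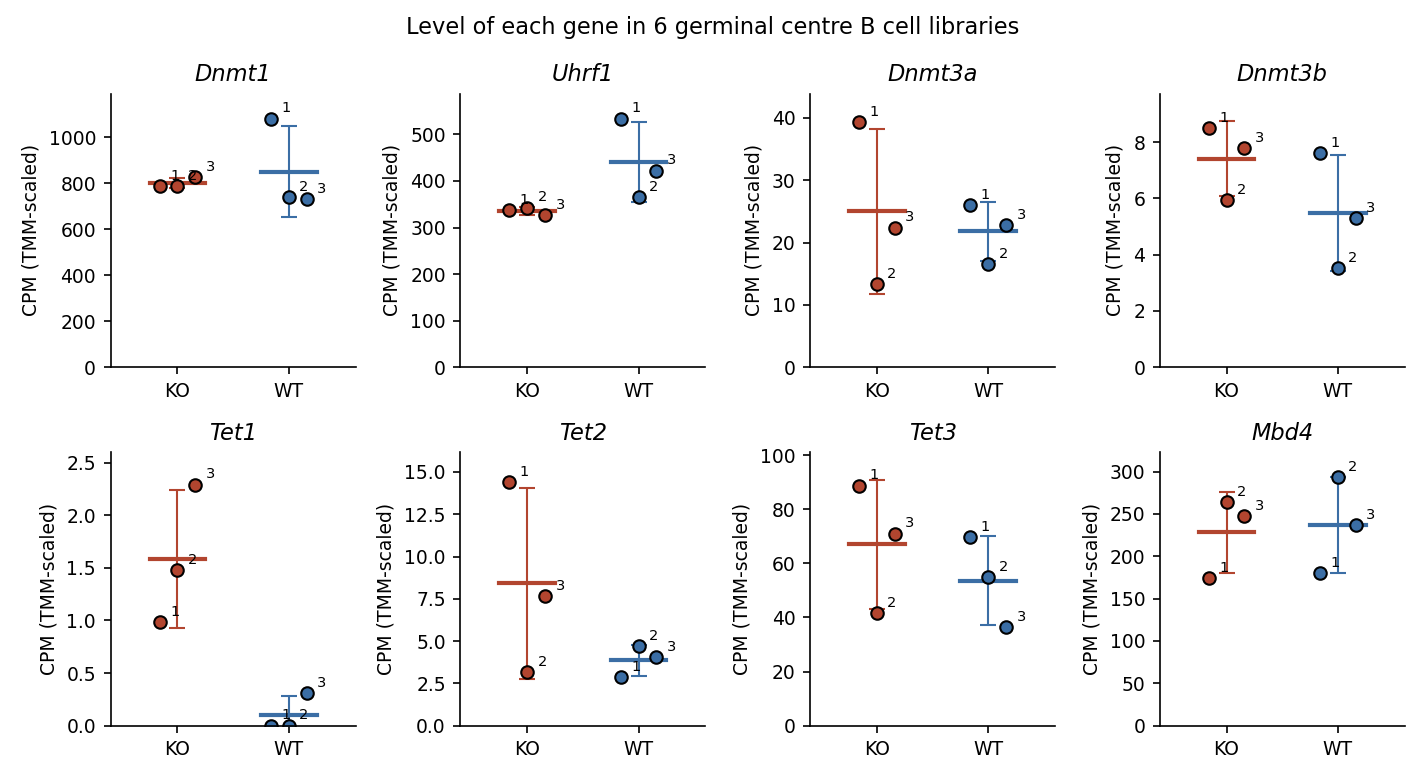
CPM (TMM-scaled, vertical axes from 0) of the 8 genes in the KO libraries (red, left) and the WT libraries (blue, right); points are libraries numbered by replicate, bars are group means and error bars the SD (n = 3 each). The Dnmt1 and Uhrf1 points of KO lie close together, the Tet2 point of KO 2 lies among the WT points, and Tet1 is near 0 in WT, where its lower error bar is clipped at 0.

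The maintenance pair Dnmt1 and Uhrf1 were the most abundant members in both groups. Dnmt1 (chr9:20907209-20959888, minus strand, mm10) was measured at 788, 787 and 827 CPM in KO and 1080, 739 and 731 CPM in WT. The KO libraries lay inside the WT range, which WT 1 alone stretched upwards. Dnmt1 averaged 801 ± 23.1 CPM in KO and 849 ± 198 CPM in WT (SD, n = 3 each), a log2 fold change of -0.08 with a 95% interval of -0.55 to 0.39 (SE 0.22, edgeR adjusted p = 0.917). Without WT 1 the log2 value was 0.11, and on library totals 0.03, so no direction can be given for Dnmt1.

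Uhrf1 (chr17:56303321-56323486, plus strand) encodes the reader of half-methylated DNA. It was measured at 337, 343 and 327 CPM in KO and at 534, 365 and 422 CPM in WT. Every KO library lay below every WT library, with 343 CPM in KO 2 close to the 365 CPM of WT 2. Among all tested genes, 7.95% had KO entirely below WT. The log2 fold change was -0.39 with a 95% interval of -0.84 to 0.05 (SE 0.20, edgeR adjusted p = 0.448). The separation depended on scaling, since on library totals KO held 360, 339 and 349 CPM and WT 537, 338 and 399 CPM, and the groups overlapped. The value was -0.25 without WT 1 and -0.24 once a trend on exon length and GC content was removed, and in 18 alternatives it ran from -0.51 to -0.23.

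Windows around annotated starts of these 2 genes are shown because Dnmt1 and Uhrf1 are known targets of the E2F factors. These factors switch on replication genes as cells enter S phase, and replication genes are described further below. The windows reach from 250 bases before to 50 bases after an annotated start, as given by RefSeq for GRCm38.p6, the build of mm10. Capitals mark the letters TTTCCCGC, TTTGGCGC, TTTCGCGC or TTTGCCGC, the common form of an E2F site, searched on both strands. The printed windows were picked from those of the 2 genes because they held a match. The Dnmt1 window is chr9:20952574-20952873 (minus strand) and the Uhrf1 window chr17:56304063-56304362 (plus strand). Both lie inside the gene, downstream of another window of the same gene, so they can hold transcribed sequence besides promoter.
Dnmt1: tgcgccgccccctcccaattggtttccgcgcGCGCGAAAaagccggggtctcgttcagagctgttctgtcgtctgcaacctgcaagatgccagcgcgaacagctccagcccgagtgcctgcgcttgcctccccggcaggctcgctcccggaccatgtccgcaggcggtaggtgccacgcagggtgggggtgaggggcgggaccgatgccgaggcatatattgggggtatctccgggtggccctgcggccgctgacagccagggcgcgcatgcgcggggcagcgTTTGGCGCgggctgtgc
Uhrf1: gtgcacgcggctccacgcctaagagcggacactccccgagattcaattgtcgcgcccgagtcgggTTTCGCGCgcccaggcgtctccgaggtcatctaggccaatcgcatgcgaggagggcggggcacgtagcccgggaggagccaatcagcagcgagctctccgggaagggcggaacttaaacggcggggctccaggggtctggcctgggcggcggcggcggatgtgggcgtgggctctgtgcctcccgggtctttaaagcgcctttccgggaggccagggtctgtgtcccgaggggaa
The Dnmt1 window held 2 matches, TTTCGCGC read on the opposite strand and TTTGGCGC, and the Uhrf1 window held 1, TTTCGCGC. Of the 13 windows of the 8 genes, these 2 were the ones with a match, whereas 2.26% of all 32851 windows of that length had one. Of 25 replication and S phase genes with a window, 10 had a match, against 2.6% of all genes with a window. Each of the searched strings holds a CG pair. The median window held 25 CG pairs for the 8 genes and 24 for the replication genes, against 7 over all windows. The shares were not matched for CG content. Both printed windows hold 33 CG pairs, and the other windows of Dnmt1 and Uhrf1 hold 12, 2 and 12. For each gene's most CG-rich window the median over the 8 genes was 31.5 CG pairs, with Tet2 highest at 57 and Tet1 lowest at 17, against a median of 8 over all genes. A match is a description of the letters and not evidence of binding, and the counts do not tell which start was used.

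Within a library the ratio of 2 genes does not depend on how libraries are scaled. The Uhrf1 to Dnmt1 count ratio was 0.428, 0.436 and 0.396 in KO and 0.496, 0.495 and 0.577 in WT. All 3 KO libraries lay below all 3 WT libraries. The mean log2 ratio differed by -0.31 (KO -1.25 ± 0.07, WT -0.94 ± 0.13, SD, n = 3 each), with p = 0.1 in a two-sided exact permutation test, the smallest p that 3 against 3 allows, and 0.3 after adjustment over the 3 ratios tested. The difference ran from -0.35 to -0.24 when each library was left out.

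The de novo enzymes were expressed far below Dnmt1, which made up 94.3 to 97.6% of the summed Dnmt counts in KO and 96.3 to 97.3% in WT. Dnmt3a (chr12:3806007-3914443, plus strand) was measured at 39.3, 13.3 and 22.4 CPM in KO and 26, 16.6 and 22.8 CPM in WT. The KO libraries thus held both the highest and the lowest of the 6 values, a 2.96-fold span in KO against 1.56-fold in WT. The log2 fold change was 0.2 (SE 0.37, edgeR adjusted p = 0.876), and it was -0.29 without KO 1 and 0.51 without KO 2. It was 0.32 without WT 1, 0.03 without WT 2 and 0.04 with a trend on exon length and GC content removed. Dnmt3b (chr2:153649450-153687730, plus strand) was measured at 8.51, 5.93 and 7.79 CPM in KO and 7.62, 3.52 and 5.3 CPM in WT. These values stood on 84 to 112 counts in KO but on 17 to 29 in WT, where the exact 95% Poisson interval of a library was as wide as 3.09 to 8.48 CPM in WT 3. The Dnmt3b groups overlapped, with a log2 fold change of 0.44 (95% interval -0.42 to 1.31, SE 0.40, edgeR adjusted p = 0.686), 0.19 without WT 2 and 0.74 without WT 1. The Dnmt3a to Dnmt3b count ratio was 4.62, 2.24 and 2.88 in KO and 3.41, 4.72 and 4.29 in WT, a mean log2 difference of -0.41 (two-sided exact permutation p = 0.3, adjusted p = 0.45). Without KO 1 that difference was -0.69 and without KO 2 it was -0.17.

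Among the TET dioxygenases Tet3 carried most of the reads, with 85.3, 89.9 and 87.7% of the summed Tet counts in KO and 96, 92.1 and 89.3% in WT. Tet3 (chr6:83362373-83459084, minus strand) was measured at 88.8, 41.6 and 71 CPM in KO and 69.6, 54.9 and 36.5 CPM in WT. The groups overlapped over most of their range, with an edgeR log2 fold change of 0.32 (SE 0.31, adjusted p = 0.721). It was 0.07 without KO 1, 0.11 without WT 3, 0.58 without KO 2, 0.54 without WT 1 and 0.2 with the length and GC trend removed.

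Tet2 (chr3:133463679-133545139, minus strand), a gene often mutated in human lymphoma, had the largest fold change of the 7 tested genes. It was measured at 14.4, 3.18 and 7.65 CPM in KO and at 2.89, 4.69 and 4.05 CPM in WT. KO 1 and KO 3 lay above all WT libraries, while KO 2 lay among them. The log2 fold change was 1.1 with a 95% interval of -0.05 to 2.26 (SE 0.53, edgeR adjusted p = 0.418). Without KO 1 it was 0.47 (edgeR adjusted p = 0.918) and without KO 2 it was 1.5 (edgeR adjusted p = 0.176). It was 0.7 with the length and GC trend removed and 0.51 with that trend and the replicate block together. The WT values rested on 11, 24 and 13 counts and the KO values on 189, 45 and 107. The Tet2 to Tet3 count ratio was 0.162, 0.0763 and 0.108 in KO and 0.0415, 0.0854 and 0.111 in WT, and it did not separate the groups (mean log2 difference 0.58, two-sided exact permutation p = 0.5, adjusted p = 0.5). That difference was 0.17 without WT 1, 0.31 without KO 1 and 0.88 without WT 3.

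Markers of other B lineage stages and of other cells varied between the libraries too. The 14 naive and memory B cell markers with a row, all counted in every library, averaged 1.69, 0.83 and 0.63 log2 units above the WT mean in KO 1, KO 2 and KO 3, against 0.06, 0.03 and -0.09 in the WT libraries. By this mean all KO libraries stood above WT, with KO 1 highest and KO 3 lowest of the KO libraries. Of these 14 markers 13 had a fold change above 0 (median log2 value 1.32), against 51.3% of all tested genes. For 6 of the 14 every KO library lay above WT, against 10% of all tested genes. Called higher in KO was 1 of the 14, Zbtb32 (log2 fold change 1.96, edgeR adjusted p = 0.0348), against 0.0732% of all tested genes. As a share of library totals the 14 markers summed to 1040, 581 and 774 CPM in KO and to 587, 520 and 449 CPM in WT. By this sum KO 2 was the lowest KO library and lay just below WT 1. The 11 plasma cell markers, none at 0 over a whole group, summed to 2820, 3160 and 3580 CPM in KO and 2420, 3450 and 3110 CPM in WT, so KO 1 was the lowest KO library by this sum. By the mean over the 10 tested markers KO 1, KO 2 and KO 3 stood at 0.67, -0.09 and 0.49 log2 units, against -0.08, -0.1 and 0.18 in WT. Macrophage and dendritic cell markers, 18 of 18 in the table and none at 0 over a group, summed to 364, 324 and 2870 CPM in KO and 324, 1280 and 2330 CPM in WT. Of the 17 tested markers of that list, 6 had a fold change above 0 and 11 below 0. Itgax had 28.1, 0.847 and 7.86 CPM in KO and 0.788, 1.95 and 4.99 CPM in WT. Itgam had 18.8, 2.47 and 4.72 CPM in KO and 0.263, 3.32 and 0.623 CPM in WT, and both were highest in KO 1. Others were lowest there: C1qb had 14.8, 18.5 and 263 CPM in KO and 28.1, 178 and 421 CPM in WT. Csf1r had 17.3, 21.7 and 440 CPM in KO and 36.5, 184 and 405 CPM in WT. T cell markers, 12 of 14 in the table, summed to 319 to 354 CPM in KO and 332 to 424 CPM in WT. Most of that sum was Lck (139 to 185 CPM in KO, 187 to 255 CPM in WT) and Cd2 (100 to 168 CPM in KO, 135 to 179 CPM in WT). Cd3d and Cd3g did not exceed 1.14 CPM in any library, and Cd8a, Bcl11b and Foxp3 were at 0 in WT. The part of other cells or stages in the Tet2 values was not tested.

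Tet1 (chr10:62804570-62908996, minus strand) was close to undetected and did not pass the filter on low counts. It had 13, 21 and 32 counts in KO and 0, 0 and 1 in WT, or 0.987, 1.48 and 2.29 CPM in KO against 0, 0 and 0.312 CPM in WT. Every KO library lay above every WT library. Among the tested genes, which do not include Tet1, KO lay entirely above WT for 10%. The exact 95% Poisson intervals reached up to 0.969 CPM in WT 1, 0.721 CPM in WT 2 and 1.74 CPM in WT 3, against intervals of 0.526 to 1.69 CPM in KO 1, 0.917 to 2.27 CPM in KO 2 and 1.56 to 3.23 CPM in KO 3. Single libraries of KO and WT thus overlapped in counting error, except KO 3 against WT 1 and WT 2 and KO 2 against WT 2. Pooled over libraries, KO held 1.6 CPM and WT 0.0824 CPM, a ratio of 19.4 with a 95% interval of 3.36 to 777 from counting error only. At the pooled KO level the WT libraries together would hold 19.4 counts, against 1 seen. The ratio was 11.2 to 22.8 when KO libraries, WT 1 or WT 2 were left out 1 at a time, and at least 4.75-fold without WT 3, taking 3 counts over the group as the floor for WT. In tests without the filter Tet1 did not pass (edgeR adjusted p = 0.138, DESeq2 adjusted p = 0.21). Such intervals do not hold the variation between mice.

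**Figure D2:**
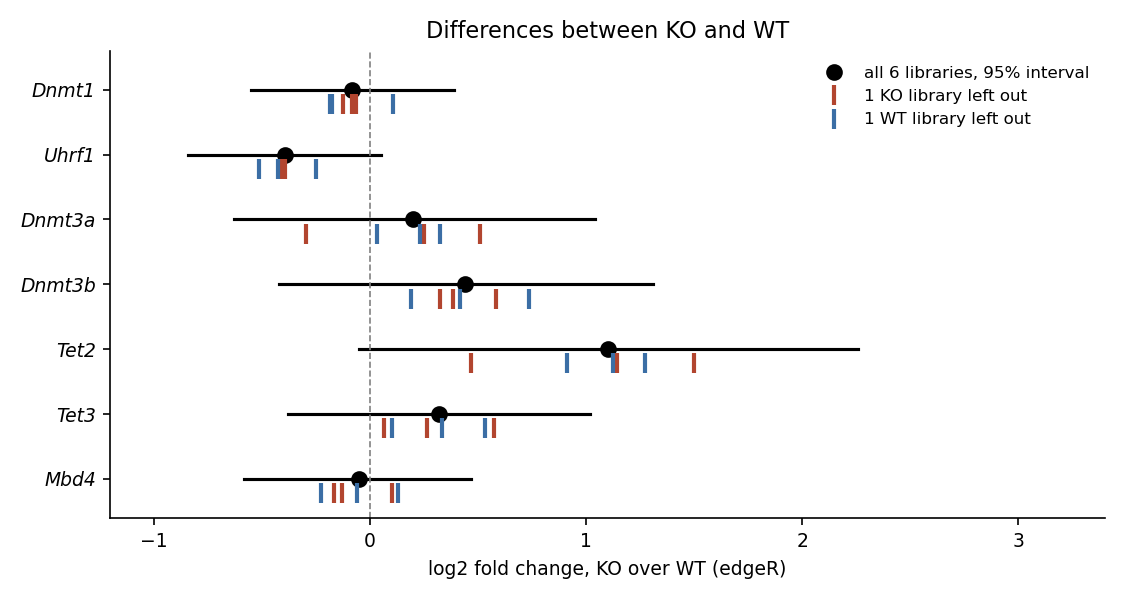
Log2 fold change of KO over WT (horizontal axis, edgeR) for the 7 tested genes; black points and lines are the values and 95% intervals with all 6 libraries, red marks the values with a KO library left out and blue marks those with a WT library left out. All 7 intervals include 0, and Tet2 moves from 1.1 to 0.47 when KO 1 is left out.

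Mbd4 (chr6:115840697-115853371, minus strand), the glycosylase that removes thymine or uracil mispaired with guanine in CG context, was measured at 174, 264 and 247 CPM in KO and 180, 293 and 237 CPM in WT. The KO and WT values covered nearly the same range. The log2 fold change was -0.05 with a 95% interval of -0.58 to 0.47 (SE 0.24, edgeR adjusted p = 0.956), and its sign changed without KO 1 (0.11), without WT 2 (0.13) and on library totals (0.07). Exons of Mbd4, Dnmt3a and Tet2 overlap 264, 133 and 43 bases of antisense genes, and the labels do not state the strand setting of the counting, so reads of such partners could be included.

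Per length of exon, the order of the 8 genes was the same in KO and WT. Dnmt1 stood at 109 ± 3.13 CPM per kb in KO and 115 ± 26.8 in WT (SD, n = 3 each). Uhrf1 followed with 78.8 ± 1.82 CPM per kb in KO and 103 ± 20.2 in WT, and Mbd4 with 43.3 ± 9.11 in KO and 44.9 ± 10.7 in WT. After a wide step came Tet3 with 4.02 ± 1.43 CPM per kb in KO and 3.21 ± 0.99 in WT, then Dnmt3a with 1.5 ± 0.8 in KO and 1.31 ± 0.29 in WT. Dnmt3b stood at 1.45 ± 0.26 CPM per kb in KO and 1.07 ± 0.4 in WT, Tet2 at 0.5 ± 0.33 in KO and 0.23 ± 0.05 in WT, and Tet1 at 0.1 ± 0.04 in KO and 0.01 ± 0.01 in WT. The libraries of neighbours in this order did not overlap in either group, except for Dnmt3a and Dnmt3b in both groups and for Dnmt1 and Uhrf1 in WT. Exon lengths cover all annotated isoforms and run from 4.26 kb for Uhrf1 to 16.87 kb for Tet2, so genes with long alternative ends such as Dnmt3a and the Tet genes would be set too low where shorter isoforms were the ones expressed.

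The balance of methyltransferase to TET transcripts overlapped between the genotypes. Summed Dnmt levels were 836, 806 and 858 CPM in KO and 1110, 759 and 759 CPM in WT. Summed Tet levels were 104, 46.3 and 80.9 CPM in KO and 72.5, 59.6 and 40.8 CPM in WT. The count ratio of Dnmt to Tet was 8.03, 17.4 and 10.6 in KO and 15.3, 12.7 and 18.6 in WT. KO 1 and KO 3 lay below all WT libraries, and KO 2 lay between WT 1 and WT 3. These sums describe the libraries and were not tested.

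**Figure D3:**
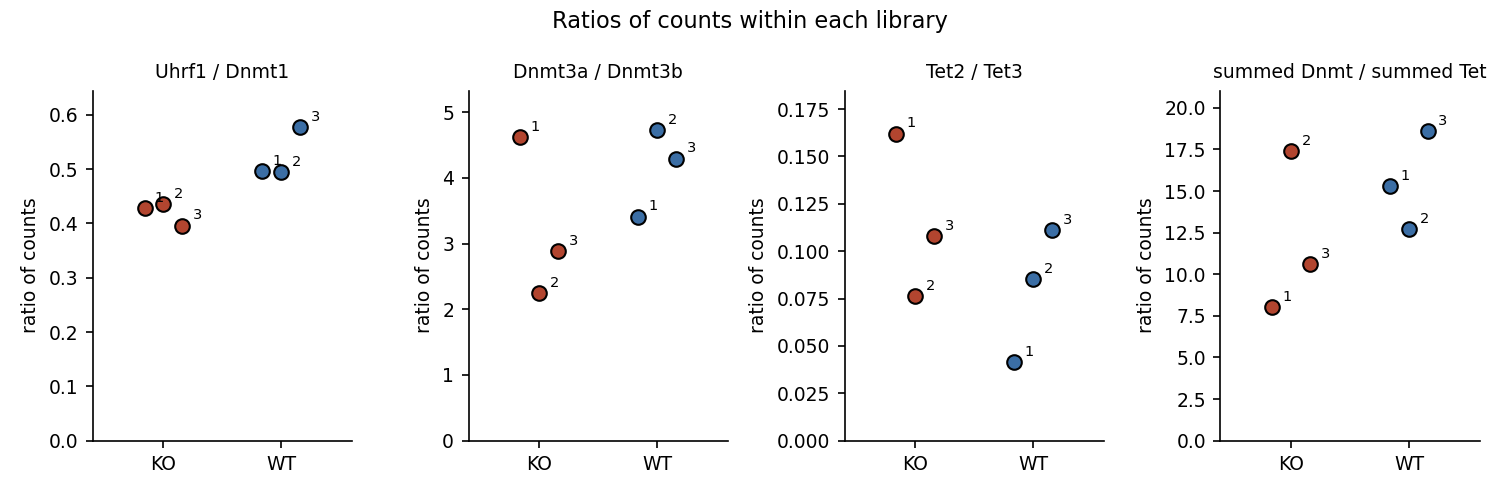
Ratios of read counts within each library (vertical axes from 0) for 3 gene pairs and for the summed Dnmt over the summed Tet counts, with KO libraries in red on the left and WT libraries in blue on the right, numbered by replicate. The Uhrf1 to Dnmt1 ratio is 0.396 to 0.436 in KO and 0.495 to 0.577 in WT, and the other ratios overlap.

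The spread among KO libraries differed widely between members. The coefficient of variation in KO was 2.31% for Uhrf1 and 2.88% for Dnmt1, against 19.5% and 23.3% in WT, whereas for Tet2 it was 67% in KO and 23.6% in WT and for Dnmt3a 52.9% in KO and 21.9% in WT. In KO the library labelled KO 1 was highest for Dnmt3a, Dnmt3b, Tet2 and Tet3, and KO 2 was lowest for the same 4 genes. Genes with a mean log2 CPM of at least 5 that ran closest to a member over the 6 libraries, by the root mean square difference of centred log2 CPM, were Brd3 (0.044) and Ints7 (0.047) for Dnmt1 and Hip1r (0.031) and Mavs (0.042) for Uhrf1, out of 5675 candidates. For Tet3 they were Bicd2 (0.11) and Traf3 (0.112), for Tet2 Man1a (0.289) and Cd38 (0.303), and for Dnmt3a Derl3 (0.125) and Nfkb2 (0.16). Golga2 (0.083) and Champ1 (0.122) ran closest to Dnmt3b, and Fundc2 (0.082) and Brox (0.086) to Mbd4. These are descriptions over 6 libraries.

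Around the members, genes that recruit or guide methylation did not pass either. Of 13 tested cofactors and chromatin partners of the methyltransferases, 0 passed in either direction, with a median log2 fold change of -0.02. Trim28, a corepressor that silences repeats, had 404, 362 and 385 CPM in KO and 596, 416 and 617 CPM in WT (edgeR log2 fold change -0.5 with SE 0.21, adjusted p = 0.355). Cdca7, which with the remodeller HELLS supports maintenance methylation, had 195, 250 and 207 CPM in KO and 280, 267 and 311 CPM in WT (-0.4, SE 0.20, edgeR adjusted p = 0.428). For both genes, named for the smallest p in the list, the KO libraries lay below the WT libraries. This held for 2 of the 13 tested partners, against 7.95% of all tested genes.

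Readers of methylated or hydroxymethylated cytosine gave 0 calls among 12 tested, with a median of 0.16. Zbtb38, a zinc finger protein that binds methylated CG pairs, had 86.4, 70.8 and 69.3 CPM in KO and 42, 56.1 and 47.1 CPM in WT (edgeR log2 fold change 0.64 with SE 0.21, adjusted p = 0.284). Hmces, which shields abasic sites in DNA, had 526, 1060 and 780 CPM in KO and 1240, 1200 and 1500 CPM in WT (-0.74, SE 0.26, edgeR adjusted p = 0.3). The KO libraries lay above WT for Zbtb38, 1 of the 12, against 10% of all tested genes. They lay below WT for Hmces, also 1 of the 12, against 7.95%.

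Cofactors and regulators of the TET enzymes gave 0 calls among 13, with a median of -0.1. Idh2, whose mitochondrial enzyme makes the 2-oxoglutarate that TET enzymes consume, had 69.9, 123 and 67 CPM in KO and 181, 153 and 166 CPM in WT (edgeR log2 fold change -0.94 with SE 0.26, adjusted p = 0.218). Idh3g, a subunit of the NAD-dependent enzyme, had 220, 305 and 232 CPM in KO and 309, 350 and 388 CPM in WT (-0.47, SE 0.21, edgeR adjusted p = 0.38). Idh2 passed by DESeq2 (-0.98, adjusted p = 0.0357) and by limma-voom with quality weights (-1.09, adjusted p = 0.0268).

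Of 19 tested base excision repair genes that act around the glycosylase step, 0 passed and 13 had a fold change below 0, with a median of -0.16. Xrcc1, the scaffold of single-strand break repair, had 250, 313 and 226 CPM in KO and 495, 306 and 438 CPM in WT (edgeR log2 fold change -0.65 with SE 0.23, adjusted p = 0.3). KO 2 overlapped WT for Xrcc1. The 3 tested deaminase genes did not pass and had a median of -0.05. Apobec1, an RNA-editing cytidine deaminase, had an edgeR log2 fold change of 0.08 (SE 0.22, adjusted p = 0.927).

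The S-adenosylmethionine cycle supplies the methyl donor of the DNMT enzymes and clears its by-product. Of 9 tested genes 0 passed, with a median of 0.27 and 6 of 9 above 0. Ahcyl2, a relative of the S-adenosylhomocysteine hydrolase, had 49.3, 31.8 and 45.4 CPM in KO and 22.3, 13.9 and 12.5 CPM in WT, with all KO libraries above all WT libraries, as for 10% of all tested genes. Its log2 fold change was 1.38 (SE 0.28, edgeR adjusted p = 0.117), and it passed without the filter (adjusted p = 0.00843), by DESeq2 (adjusted p = 0.0078), by limma-voom with quality weights (adjusted p = 0.0236) and by edgeR without WT 1 (1.66, adjusted p = 0.0407). Mtr, the methionine synthase gene, had 39.6, 33.7 and 42.8 CPM in KO and 28.6, 22.3 and 24.6 CPM in WT (0.62, SE 0.22, edgeR adjusted p = 0.299).

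Replication and S phase genes, among which Dnmt1 and Uhrf1 are usually counted, gave 0 calls among 30. Of the 30, 27 had a fold change below 0, with a median of -0.23. Of all tested genes 51.3% were above 0, with a median of 0.01. For 7 of the 30 the KO libraries lay entirely below WT, against 7.95% of all genes. These values use TMM scaling, and library totals raised the median of all genes by 0.121 log2 units. Pold1, the catalytic subunit of DNA polymerase delta, had 226, 235 and 223 CPM in KO and 403, 312 and 491 CPM in WT (edgeR log2 fold change -0.82 with SE 0.21, adjusted p = 0.203). Rfc3, a clamp loader subunit, had 122, 148 and 104 CPM in KO and 162, 216 and 212 CPM in WT (-0.66, SE 0.22, edgeR adjusted p = 0.284). The mean of the 30 genes relative to WT was -0.22, -0.16 and -0.38 log2 units in KO 1, KO 2 and KO 3, against 0.03, -0.03 and 0 in the WT libraries. The log2 fold changes of Uhrf1, -0.39, and Dnmt1, -0.08, lie within the range of these 30 genes, -0.82 to 0.16. The median over all tested genes, 0.01, lies in that range too. A link between the members and the replication genes was not tested. DESeq2 called Pold1 lower in KO, and limma-voom with quality weights, which called 290 genes higher and 344 lower over all genes, also called Pold1, Rfc3, Hmces and Xrcc1 lower, among others.

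**Figure D4:**
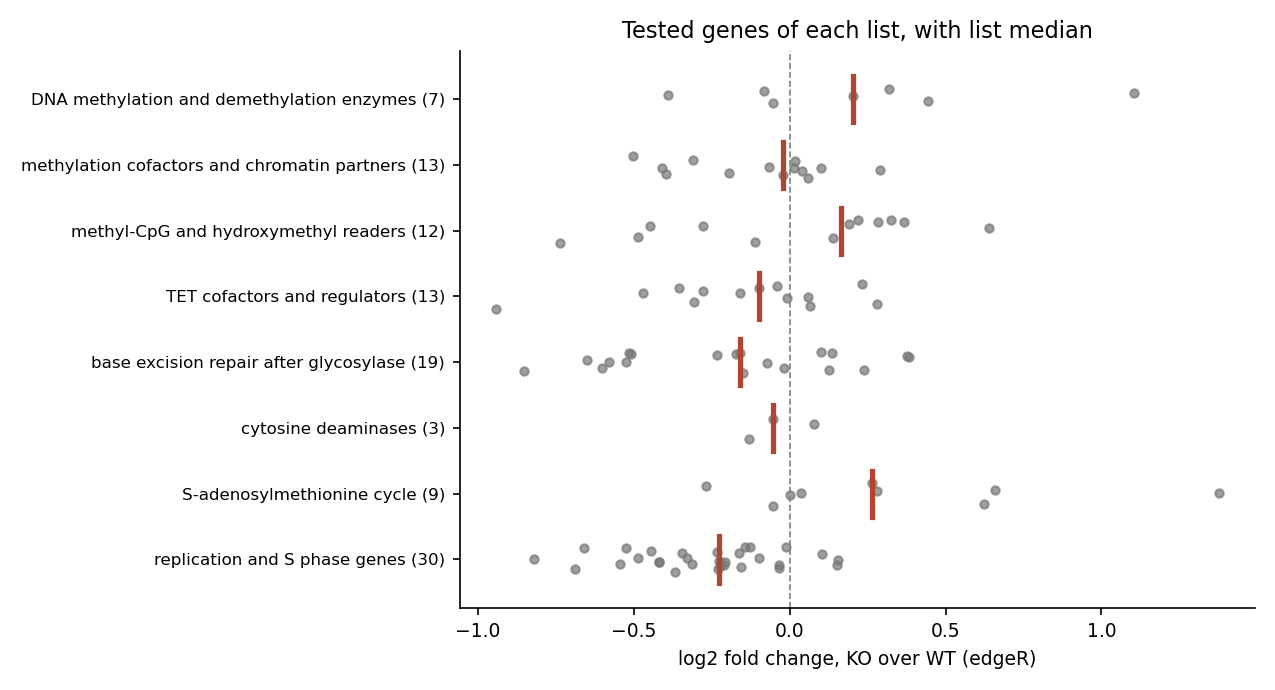
Log2 fold change of KO over WT (horizontal axis, edgeR) for the tested genes of each list, 1 grey point per gene with the number tested in brackets; red bars are list medians and vertical scatter has no meaning. Medians run from -0.23 for replication genes to 0.27 for the S-adenosylmethionine cycle, and Tet2 and Ahcyl2 are the points furthest to the right.

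**Figure D5:**
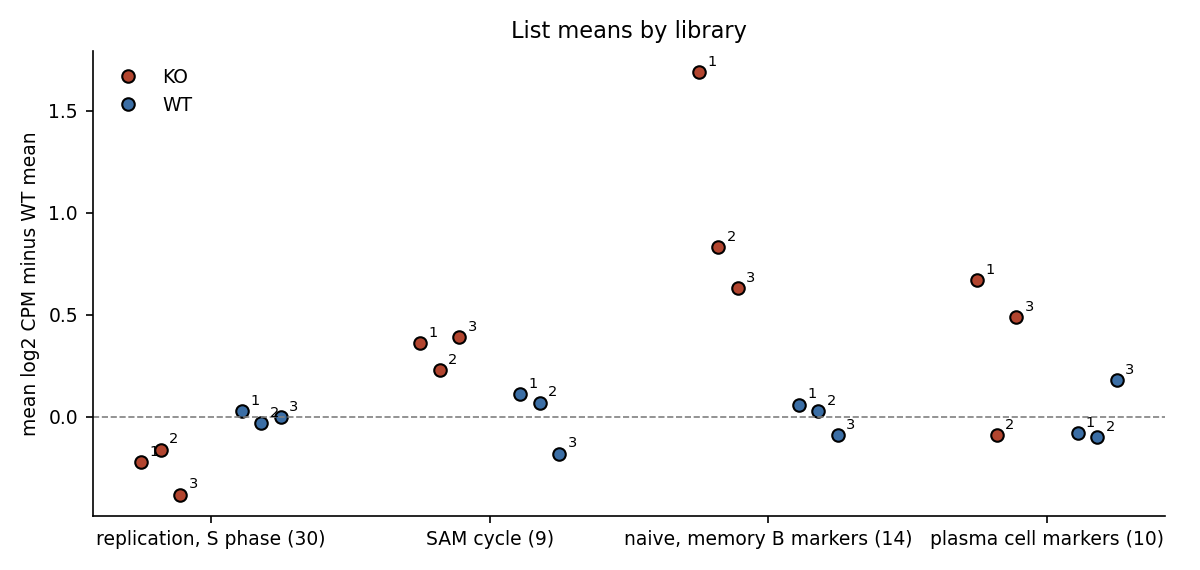
Mean over the genes of a list of log2 CPM minus the mean of the WT libraries (vertical axis), by library, with KO in red left of WT in blue and replicate numbers beside the points. For replication genes the KO libraries lie at -0.38 to -0.16 and WT at -0.03 to 0.03, and the naive and memory B cell markers are highest in the library labelled KO 1.

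Some germline genes are kept silent in somatic cells by DNA methylation at their promoters. Of 20 such genes 7 had a row, and 0 passed the filter on low counts. None of the 7 reached 2 CPM, and the highest value was 1.64 CPM, for Tdrkh in KO 3. Ddx4, a germ cell RNA helicase, had 0.608, 0.565 and 0.572 CPM in KO and 0.263, 0.195 and 0.312 CPM in WT. All KO libraries lay above all WT libraries for Ddx4, which was not among the genes tested. Among the tested genes KO lay entirely above WT for 10%. The floor that 3 counts set is 0.586 to 0.935 CPM in the WT libraries, so the Ddx4 values of WT lie below it and those of KO lie near or below it. Differences in the 7 genes were not tested.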

How the data were processed

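RNA of sorted germinal centre B cells from 6 mice was measured, 3 KO and 3 WT, grouped by their sample labels. The values are raw counts of reads per gene symbol, as deposited for each mouse. Per the submitters' processing notes, the tools were STAR 2.5.2, featureCounts 1.5.2 and CASAVA, on build mm10. An annotation, a strand setting and a rule for reads with multiple hits were not given in the sources used here. Genotypes were compared by the two-sided quasi-likelihood test of edgeR 4.0.16 (R 4.3.3), after the filterByExpr filter and TMM normalisation and with robust dispersions and no covariate. P-values were adjusted by Benjamini-Hochberg over 10926 genes, with a threshold of 0.05. Standard errors and 95% intervals follow from the F statistic. CPM values use TMM-scaled library sizes, and marker sums use library totals. Floors and Poisson intervals cover counting error only. DESeq2 1.42.0, limma-voom 3.58.1, other scalings and filters, thinning to equal depth, a length and GC trend and left-out libraries were alternatives. The gene tests were tested on simulated data first. Exon lengths and coordinates came from GENCODE M21, which matched 98% of symbols.

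The members and lists were chosen with earlier results of these data known. All 8 members are named. From each list the 2 tested genes with the smallest p are named, but some genes within this rule are not reported here. Other named genes (Tdrkh, Ddx4, Zbtb32, Itgax, Itgam, C1qb, Csf1r, Lck, Cd2, Cd3d, Cd3g, Mef2b and markers at 0) were chosen after their values were seen. A ratio of Tdg to Mbd4 had been planned and was not run. The chi-square per degree of freedom between libraries of a group was 14.4 to 50.9, so no 2 looked like repeats. The edgeR p-values set the difference between groups against the spread between these mice, estimated partly from all genes. The p-values of the ratios come from regrouping the libraries.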

Additional observations from a re-analysis of the deposited data

How the results depend on the processing

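No member passed in any of the 18 alternatives, of which 12 changed a setting and 6 left out a library. Signs of members that did not pass were less stable. Dnmt1 (-0.185 to 0.106 with each library left out) changed sign on library totals (0.025), with quality weights (0.018), with the length and GC trend removed (0.001), with that trend and the replicate block (0.008) and without WT replicate 1 (0.106). Dnmt3a (-0.294 to 0.512) changed sign with the trend and the replicate block (-0.038) and without KO replicate 1 (-0.294). Mbd4 (-0.227 to 0.129) changed sign on library totals (0.069), without KO replicate 1 (0.105) and without WT replicate 2 (0.129). Uhrf1, Dnmt3b, Tet2 and Tet3 kept their signs. Tet2 could not be fitted with the filter of 5 CPM in 3 libraries. Library totals moved the median of all genes by 0.121 log2 units.

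Over all genes, 8 were higher and 1 lower in KO. The counts higher and lower were 16 and 2 on library totals, 81 and 12 with no filter, 93 and 34 by DESeq2, 5 and 1 by limma-voom, 290 and 344 with quality weights, and 17 and 3 with the length and GC trend removed. The lower count was 2 with DESeq2 size factors, upper-quartile scaling, the stricter filter or thinning to equal depth. Leaving out each library gave 1 to 21 higher and 0 to 5 lower. Of the pathway list genes 0 were called higher or lower, but 1 was higher with no filter, 1 higher and 2 lower by DESeq2, 1 higher and 8 lower with quality weights, and 0 to 1 higher and 0 lower when a library was left out.

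Whether the replicate numbers pair the mice cannot be told from these counts. Deviations of same-numbered libraries correlated at 0.34, -0.05 and 0.44 across genes. KO 1 correlated best with WT 1 and KO 3 with WT 3, but KO 2 also correlated best with WT 1 (0.2). With the replicate block 20 genes were higher, and 30 higher and 5 lower with the block and the trend, and no member passed. With each library left out, the log2 difference of Uhrf1/Dnmt1 ran from -0.351 to -0.24, of Dnmt3a/Dnmt3b from -0.693 to -0.17 and of Tet2/Tet3 from 0.174 to 0.885. The cause of these changes was not tested. The depth of the WT libraries limits Tet1, Tet2 and Dnmt3b, with at most 29 counts each.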
